A study of Ovis aries with 2 samples.

Results

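TBX6, MSGN1, DLL1, DLL3, HES7, LFNG, MESP1, MESP2 and RIPPLY2 are genes of the segmentation clock and of the Notch signalling that runs it. The 9 genes were taken by symbol, and all 9 were among the 26478 features of the count matrices. At least 1 unique molecular identifier (UMI, a tag that marks 1 captured RNA molecule) was counted for 8 of the 9 genes in the kept cells of the Hulunbuir library and for 6 of the 9 in those of the Ujumqin library.

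The study set embryos of the Hulunbuir Short-tail sheep, a short-tailed breed, beside embryos of the Ujumqin sheep, the long-tailed and fat-tailed control breed, at embryonic day 16. Extraembryonic tissue was trimmed away with forceps, the embryos were dissociated, red blood cells were lysed and the cells were profiled with the 10x Genomics 3′ v3 chemistry. The ewes of both breeds had been given vaginal progesterone and an injection of PMSG, a gonadotropin, before mating, and the labels name no other agent or allele. The submitters' design gives 3 per group, but the embryos of a breed were pooled into 1 library in which they cannot be told apart, so every difference between breeds below has no replicate check, and no p-value is given.

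Somites, the blocks that become vertebrae, muscle and dermis, bud off in turn from the presomitic mesoderm at the tail end of the embryo, and axis and tail grow as long as this tissue is supplied. A segmentation clock, a wave of Notch activity with WNT and FGF partners, sweeps through the presomitic mesoderm for each somite that forms. TBX6 and MSGN1 are transcription factors that commit cells to presomitic fate, DLL1 is the Notch ligand of the tissue, DLL3 is a related protein that acts inside the cell, LFNG is a glycosyltransferase that tunes the receptor, HES7 is the oscillating repressor, and MESP2 and RIPPLY2 set and then close the somite boundary.

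Cells were kept where at least 200 genes were detected and under 10% of UMIs were mitochondrial. This left 14554 Ujumqin cells (85.3% of barcodes, a median of 9519 UMIs and 1247 genes per cell) and 9583 Hulunbuir cells (89.5%, a median of 11879 UMIs and 2180 genes). The same barcode sequence was kept in both libraries 50 times. Levels are given as counts per 1000000 UMIs (CPM) summed over the cells of a group, with the exact Poisson 95% interval in brackets. Shares of cells carry the exact binomial interval, and both kinds of interval cover counting error only. Because these are 3′ counts and not per length, levels are compared between cells and not between genes.

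Each cell was given the class whose marker list, free of the 9 genes, had the most members above the library level. Cells with too few markers (50.8% of Ujumqin and 33.7% of Hulunbuir kept cells) or with ties (1.19% and 5.36%) got no class. Of the 610 Ujumqin DLL3 UMIs, 167 lay in cells with too few markers and 162 in ties. For the 826 Hulunbuir RIPPLY2 UMIs these were 165 and 151, so class levels leave out part of the signal. The class names are those of the lists. The presomitic list placed 46 Hulunbuir cells (0.480% of the kept cells) and 4 Ujumqin cells (0.0275%), and the caudal progenitor list placed 971 and 22 cells (10.1% and 0.151%). The somite list placed 245 Hulunbuir and 58 Ujumqin cells, and the neural progenitor list 242 and 63. In Hulunbuir the leading genes of the classes went with their names: FGF8, WNT5B and CYP26A1 in caudal cells, MEOX1 and PAX3 in somite cells, PAX6, SOX2 and IRX3 in neural cells, and FGF17, PCDH8 and SNAI1 in presomitic cells. The presomitic and caudal classes were not cleanly separate, since 26 of the 46 presomitic and 638 of the 971 caudal cells fell into the same cluster. In Ujumqin the caudal markers WNT3A, NKX1-2 and FGF4 had no UMI, and its 22 caudal cells did not form a cluster, so the label is weak there. Erythroid cells made up 26.1% of the Ujumqin and 0.0417% of the Hulunbuir kept cells, so levels over all cells also carry that difference in make-up.

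All 7 of the members that could be compared over all kept cells were higher in the Hulunbuir library. DLL3 had 8532 UMIs in Hulunbuir and 610 in Ujumqin, or 66.3 against 2.91 CPM, a log2 difference of 4.51 (4.39 to 4.63). Its partner ligand DLL1 had 1858 and 468 UMIs, or 14.4 against 2.23 CPM, a smaller log2 difference of 2.69 (2.55 to 2.84).

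HES7, the repressor at the centre of the clock, had 162 UMIs in Hulunbuir and 13 in Ujumqin (1.26 and 0.062 CPM, log2 difference 4.34, 3.53 to 5.28). LFNG had 187 and 46 UMIs (1.45 and 0.219 CPM, log2 difference 2.73, 2.26 to 3.23). RIPPLY2, which ends the boundary programme, had 826 and 112 UMIs (6.42 and 0.534 CPM, log2 difference 3.59, 3.30 to 3.88). The differences of the ligand DLL1 and the receptor modifier LFNG were thus smaller than those of DLL3 and HES7, with intervals that did not overlap.

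The presomitic transcription factors were sparse in both libraries. TBX6 had 25 UMIs in Hulunbuir and 2 in Ujumqin (log2 difference 4.35, 2.34 to 7.47). MSGN1 had 71 UMIs in Hulunbuir and 0 in Ujumqin, at least 38.6-fold higher when the empty library is set to 3 UMIs. MESP2 had 8 and 0 UMIs, at least 4.34-fold higher on the same floor. MESP1, the early mesoderm factor that lies beside MESP2 in the RefSeq gene order, had no UMI in any kept cell of either library, so at this depth it was not detectable and not shown to be absent.

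Summed over the 9 genes, Hulunbuir stood at 90.7 CPM (11669 UMIs) and Ujumqin at 5.97 CPM (1251 UMIs), a log2 difference of 3.93 (3.84 to 4.01), which was 3.34 when erythroid cells were left out. DLL3 alone gave 8532 of the 11669 Hulunbuir UMIs, so the sum mostly follows DLL3 in that library. The count of 7 of 7 is read against a high background, since 45.1% of the 13476 genes with enough UMIs were at least 2-fold higher in Hulunbuir. TBX6, MSGN1 and HES7 reached the minimum of 20 UMIs only through Hulunbuir, so the count gains no support from them. The median log2 difference was 4.34 over the 7 members and 0.91 over all genes tested.

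Markers of the tail end moved in the same direction. All 12 caudal markers had a UMI in Hulunbuir, and their summed level was 99.7 CPM against 3.01 CPM in Ujumqin. The summed somite markers were at 22.4 and 3.39 CPM, and the summed neural markers at 50.6 and 5.59 CPM. The summed presomitic markers differed the least of these lists, at 130 CPM in Hulunbuir and 73.2 CPM in Ujumqin. Within the caudal class the summed 9 genes stood much closer, at 398 CPM in 971 Hulunbuir cells and 313 CPM (92 UMIs) in 22 Ujumqin cells, a log2 difference of 0.34 (0.05 to 0.66), with 37 of those 92 UMIs from DLL1 in 1 cell. DLL1 gave 45 and DLL3 46 of the 92 UMIs, and these genes differed in opposite directions. The log2 difference was -1.40 (-1.84 to -0.93) for DLL1 and 1.02 (0.61 to 1.48) for DLL3, so the closeness of the sum does not describe single genes. The part that dissection and developmental stage had in the difference over all cells was not tested.

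DLL3 was highest in presomitic cells. In Hulunbuir its level was 571 CPM [515 to 631] in presomitic cells, where 80.4% of cells had a UMI. It was 319 CPM [309 to 329] in caudal cells, with 63.9% of cells, and 296 CPM [277 to 315] in somite cells, with 59.2% of cells. Caudal and somite cells were close, with a log2 difference of -0.11 (-0.21 to -0.01), and presomitic cells stood above caudal cells by 0.84 (0.69 to 0.99). The somite level is an average over unlike cells, at 633 CPM in those of cluster 10 and 35.3 in those of cluster 7 (clusters below).

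Neural progenitors held far less DLL3, 11 CPM [7.69 to 15.2], with a UMI in 9.92% of cells, and mesenchyme 5.93 CPM, with a UMI in 7.44%. Intermediate mesoderm was at 34.7, gut endoderm at 25.4 and endothelium at 9.50 CPM. Free RNA can leave a UMI in a droplet whose cell does not express the gene. Erythroid cells, which should lack both ligands, had a DLL3 UMI in 0.973% of cells (0.559 CPM) and a DLL1 UMI in 0.342% (0.221 CPM) in Ujumqin, but Hulunbuir had too few erythroid cells for such a measure. The part of free RNA in the low Hulunbuir levels was not tested.

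DLL1, which also acts as a ligand in neural tissue and gut, was more evenly spread. In Hulunbuir it was at 80.7 CPM [71.4 to 91.0] in somite cells, 58.0 [53.8 to 62.4] in caudal cells and 50.8 [35.2 to 71.0] in presomitic cells. Neural progenitors were at 23.2 CPM [18.3 to 29.0], gut endoderm at 20.7, intermediate mesoderm at 17.5 and endothelium at 6.48. Mesenchyme was lowest of these at 0.928 CPM. Somite cells were above caudal cells by a log2 difference of 0.48 (0.27 to 0.68), while caudal and presomitic cells overlapped. This order depends on the gate. With other members of the 9 in the presomitic gate, DLL1 was at 107 CPM [91.0 to 124] in presomitic cells. It was then at 56.2 CPM [52.0 to 60.6] in caudal and 50.4 [42.5 to 59.4] in somite cells.

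HES7 and MSGN1 were highest in caudal cells. HES7 stood at 9.33 CPM [7.71 to 11.2] in Hulunbuir caudal cells and at 5.98 [1.63 to 15.3] in presomitic cells, which overlap. It was at 1.81 CPM [0.663 to 3.93] in somite cells, 0.305 in neural progenitors and 0.170 in mesenchyme.

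MSGN1 was at 4.18 CPM [3.12 to 5.48] in caudal cells, which held 52 of its 71 UMIs, and had no UMI in somite cells, which on a floor of 3 UMIs allows up to 0.904 CPM, or in neural progenitors. Presomitic cells, at 1.5 CPM from 1 UMI, overlapped caudal cells for MSGN1 too. TBX6, which acts with MSGN1 in presomitic fate, had 13 of its 25 UMIs in caudal cells (1.05 CPM) and was at 1.5 CPM in presomitic cells, where a single UMI gives that level. Neighbouring classes in the order of TBX6 did not differ beyond counting error.

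RIPPLY2 was highest in the somite class. It reached 107 CPM [96.4 to 119] in Hulunbuir somite cells, against 4.49 in presomitic, 1.53 in caudal, 0.915 in neural and 1.91 in mesenchymal cells. The somite level is an average, at 255 CPM in the somite cells of cluster 10 and 0.58 in those of cluster 7 (clusters below). The gap to presomitic cells depends on the gate. With other members of the 9 in the presomitic gate, RIPPLY2 was at 66.5 CPM [51.1 to 85.1] in 68 presomitic cells and 99.5 in somite cells. Of those 63 presomitic UMIs, 29 lay in 1 cell. MESP2, which acts just before RIPPLY2 at the boundary, had 4 of its 8 UMIs in somite cells (1.2 CPM) and none in caudal or presomitic cells. With other members in the gate, 2 MESP2 UMIs lay in presomitic cells. LFNG was spread over more classes, at 7.23 CPM [4.63 to 10.8] in somite, 5.39 in intermediate mesoderm, 4.99 in caudal, 4.49 in presomitic, 3.35 in neural and 1.51 in endothelial cells, and its highest classes overlapped.

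**Figure D1:**
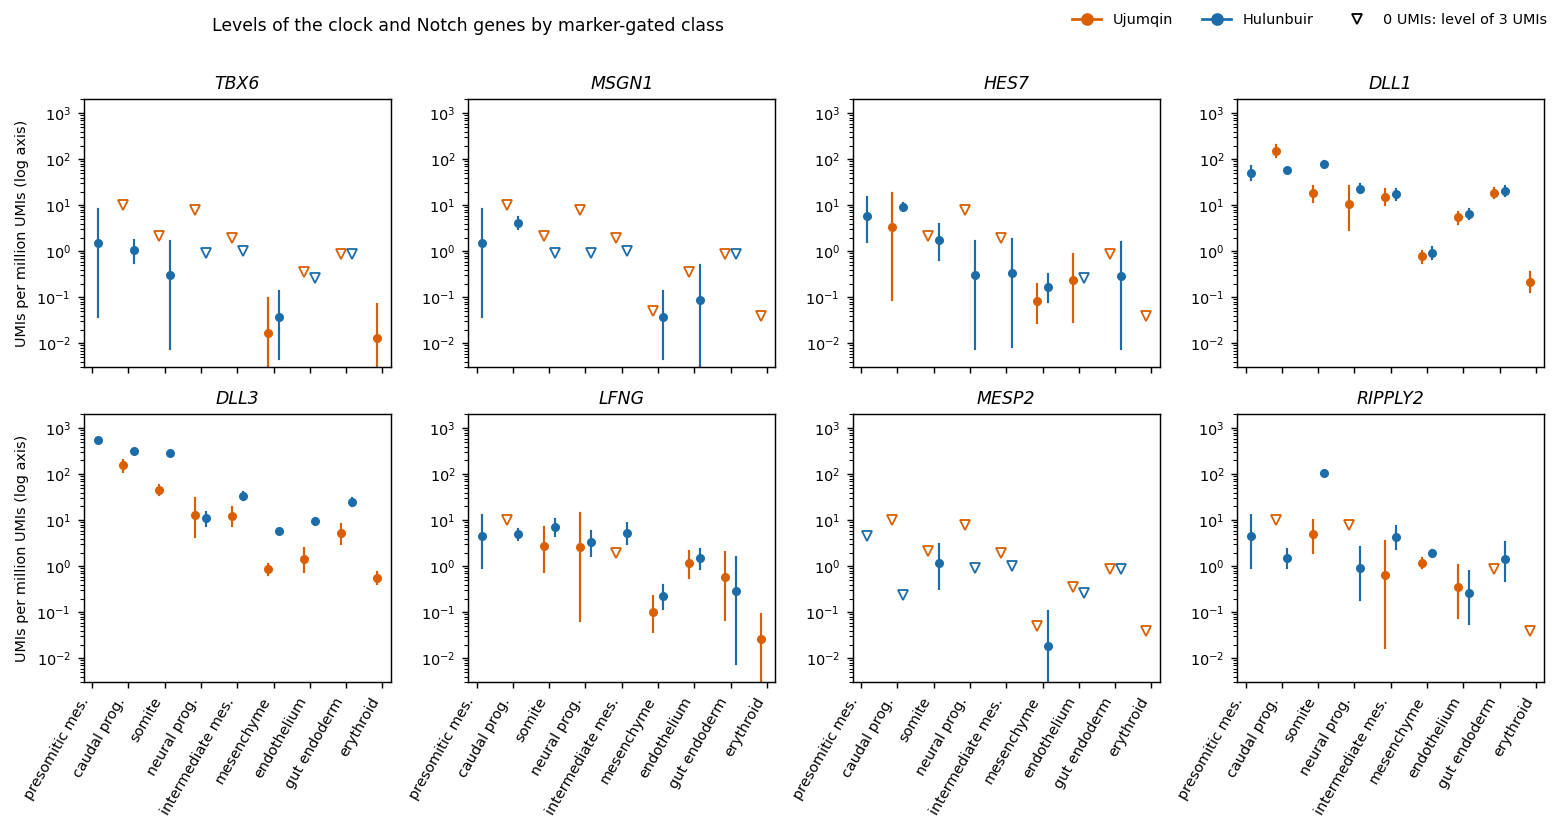
Level of each gene (counts per 1000000 UMIs, log axis) in marker-gated classes of the Ujumqin (orange) and Hulunbuir (blue) libraries, with exact Poisson 95% intervals; open triangles mark classes with 0 UMIs at the level that 3 UMIs would give, and MESP1 and classes with fewer than 20 cells are not drawn. DLL3 falls from 571 CPM in Hulunbuir presomitic cells to 11 in neural progenitors, while DLL1 goes from 80.7 in somite cells to 23.2 in neural progenitors and RIPPLY2 peaks at 107 in somite cells.

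Within Hulunbuir, presomitic cells exceeded neural progenitors for both members with enough UMIs to compare, DLL3 by 5.70 log2 units (5.21 to 6.24) and DLL1 by 1.13 (0.51 to 1.73). Of the 5798 genes tested there, 5.61% were at least 2-fold higher. The median was 3.42 for these 2 members and 0.11 for all genes. The summed 9 genes, with 382 of their 428 presomitic UMIs from DLL3, were 4.05 log2 units (3.76 to 4.34) higher in presomitic cells. In Ujumqin, where 4 cells were presomitic, the same difference was 0.95 (-1.55 to 2.90) and its direction cannot be read.

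With more cells on the caudal side, 4 of the 6 comparable members were at least 2-fold higher in Hulunbuir caudal cells than in neural progenitors, where 6.94% of 8499 genes were. DLL3 differed by 4.86 log2 units (4.39 to 5.38), HES7 by 4.94 (2.43 to 10.25) and DLL1 by 1.32 (0.98 to 1.68). MSGN1 was at least 4.57-fold higher. LFNG (0.57, -0.37 to 1.65) and RIPPLY2 (0.74, -1.02 to 3.14) had intervals that span 0. The median of the 6 members was 1.76 and that of all genes 0.06.

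Between caudal and somite cells the genes parted by role. RIPPLY2 was higher in somite cells by 6.13 log2 units (5.47 to 6.88), 1 of the 6 members at least 2-fold higher where 4.4% of 8475 genes were. HES7 was lower by 2.37 on the log2 scale (interval -3.84 to -1.20), and MSGN1 was at most 0.22-fold of its caudal level. These were the 2 of 6 members at least 2-fold lower, where 7.6% of genes were. LFNG differed by 0.54 (-0.21 to 1.24). The members' median log2 difference was 0.18, beside 0.05 for all genes.

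Hulunbuir cells were then ordered by how many more caudal or somite markers they held, which uses none of the 9 genes. Along the 8 steps from 4 or more extra caudal markers to 3 or more extra somite markers, HES7 went 11.8, 11.6, 3.91, 5.36, 2.28, 7.87, 0.926 and 1.43 CPM. The HES7 level of 7.87 CPM came from 3 UMIs in 33 cells [1.62 to 23.0]. MSGN1 went 3.68, 5.09, 2.56, 3.57 and 2.28 CPM and then had no UMI in the last 3 steps. On a floor of 3 UMIs these steps allow up to 7.87, 1.39 and 2.14 CPM. The first of these limits lies above every earlier MSGN1 level. RIPPLY2 went 1.84, 1.39, 1.10, 3.57 and 11.4 CPM and then 181, 135 and 112 CPM. Its 11.4 CPM came from 20 UMIs, 14 of them in 1 cell. Its 181 CPM came from 69 UMIs in 9 of 33 cells, 23 of them in 1 cell. The clock repressor and the presomitic factor thus lay at the caudal end and RIPPLY2 at the somite end, with the change for RIPPLY2 at the first step where somite markers outnumbered caudal ones. RIPPLY2 at the somite end is an average over unlike cells. Somite-class cells held it at 255 CPM in cluster 10 but at 0.58 CPM, from 1 UMI, in cluster 7.

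DLL3 in Hulunbuir did not follow either pattern and stayed between 236 and 517 CPM at all 8 steps. The last 3 steps include the somite class, with DLL3 at 633 CPM in its cluster 10 cells and 35.3 in its cluster 7 cells. A steady level there is thus an average and does not describe all somite cells. Its highest step, like that of DLL1 (155 CPM) and RIPPLY2, was the 1 with a single extra somite marker, which held 33 cells. Among the ordered cells MESP2 had UMIs only in the last 3 steps, with 1, 2 and 2, and the rest of its 8 UMIs lay in cells outside the order. TBX6 had 4, 5, 7 and 1 UMIs in the first 4 steps, 0 in the next 2 and 1 in each of the last 2. In Ujumqin the same steps held 2 to 44 cells, with DLL3 between 12.5 and 413 CPM, no MSGN1 UMI and RIPPLY2 UMIs in the last 2 steps only (6 in each), too few for an order.

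**Figure D2:**
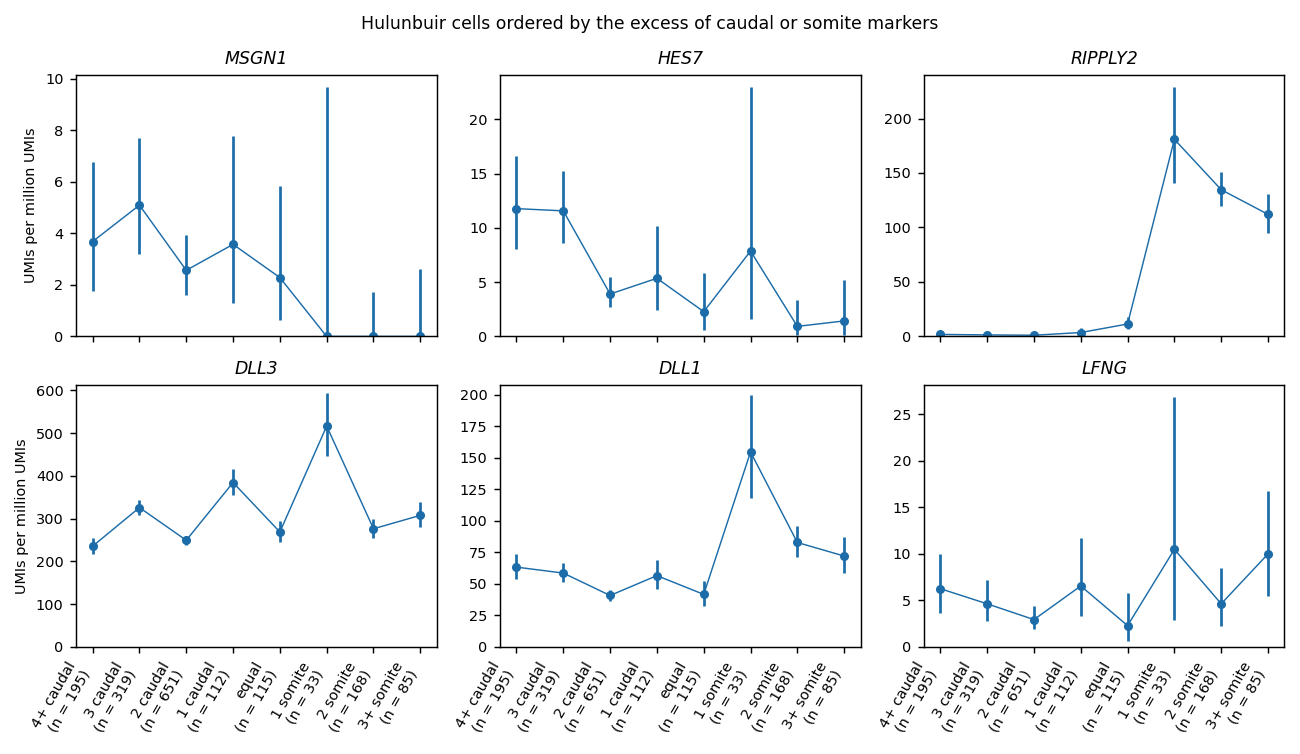
Level of 6 genes (counts per 1000000 UMIs, linear axes that start at 0) in Hulunbuir cells binned by the excess of caudal or somite markers, with the number of cells per bin and exact Poisson 95% intervals. HES7 falls from 11.8 to 1.43 CPM, MSGN1 has no UMI in the 3 somite bins, and RIPPLY2 stands at 181, 135 and 112 CPM in them.

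Caudal cells were also divided by a UMI of SOX2, a gene of neural and neuromesodermal progenitors. The 554 Hulunbuir caudal cells without SOX2 had DLL3 at 457 CPM [441 to 474], against 157 [147 to 168] in the 417 cells with it, a log2 difference of 1.54 (1.43 to 1.65). MSGN1 was likewise at 5.98 against 2.09 CPM (1.52, 0.56 to 2.58). HES7 went the other way, at 7.17 CPM without and 11.8 with SOX2 (-0.72, -1.29 to -0.17). DLL1 was at 61.4 and 54.0 CPM and the interval of its difference spans 0 (0.19, -0.03 to 0.40). The caudal class mixes 638 cells of cluster 5 with 148 of cluster 13, which was led by SOX2 and held much less DLL3 (clusters below). How far the split by SOX2 restates these clusters was not tested.

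Unsupervised clusters, made in each library without the 9 genes and kept by number, placed the genes in a few groups of Hulunbuir cells. Cluster 5 (809 cells, with FGF8 and SLC2A5 among its leading genes) held 63 of the 71 MSGN1 UMIs, 16 of the 25 TBX6 UMIs and 99 of the 162 HES7 UMIs. DLL3 was at 491 CPM [478 to 505] there, with a UMI in 79.7% of cells, and DLL1 at 74.7 CPM. Cluster 5 was thus where the early presomitic factors and the clock repressor met the Delta genes.

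Cluster 10 (256 cells, led by CER1, DEPP1, CITED1 and MEOX1) held 616 of the 826 RIPPLY2 UMIs, at 239 CPM [220 to 259] with a UMI in 35.9% of cells, and 6 of the 8 MESP2 UMIs. Its markers were mixed, with 4 of the presomitic list (PCDH8, RIPPLY1, RSPO3 and TCF15) beside 6 of the somite list. DLL3 was at its highest there, 710 CPM [678 to 743], as was DLL1 at 171 CPM [155 to 187]. MSGN1 had no UMI in cluster 10, while HES7 was still at 5.04 and LFNG at 10.1 CPM. Both boundary genes therefore lay mainly in cells that held the most of the Delta genes.

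Lower levels were found in other clusters. Cluster 13 (229 cells, led by SOX2, FGF8 and CDX4, with 7 caudal markers) had HES7 at 7.19 CPM [4.45 to 11], close to the level of cluster 5, beside DLL3 at 32.2 and DLL1 at 37.3 CPM. Cluster 9 (293 cells, led by SOX2, STMN2 and PAX6) had DLL1 at 21.4, DLL3 at 7.03 and LFNG at 4.57 CPM. Cluster 7 (383 cells, led by FST, NR2F1, MEOX1 and PAX3, with 6 somite markers) had DLL3 at 32.4 and DLL1 at 8.41 CPM.

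**Figure D3:**
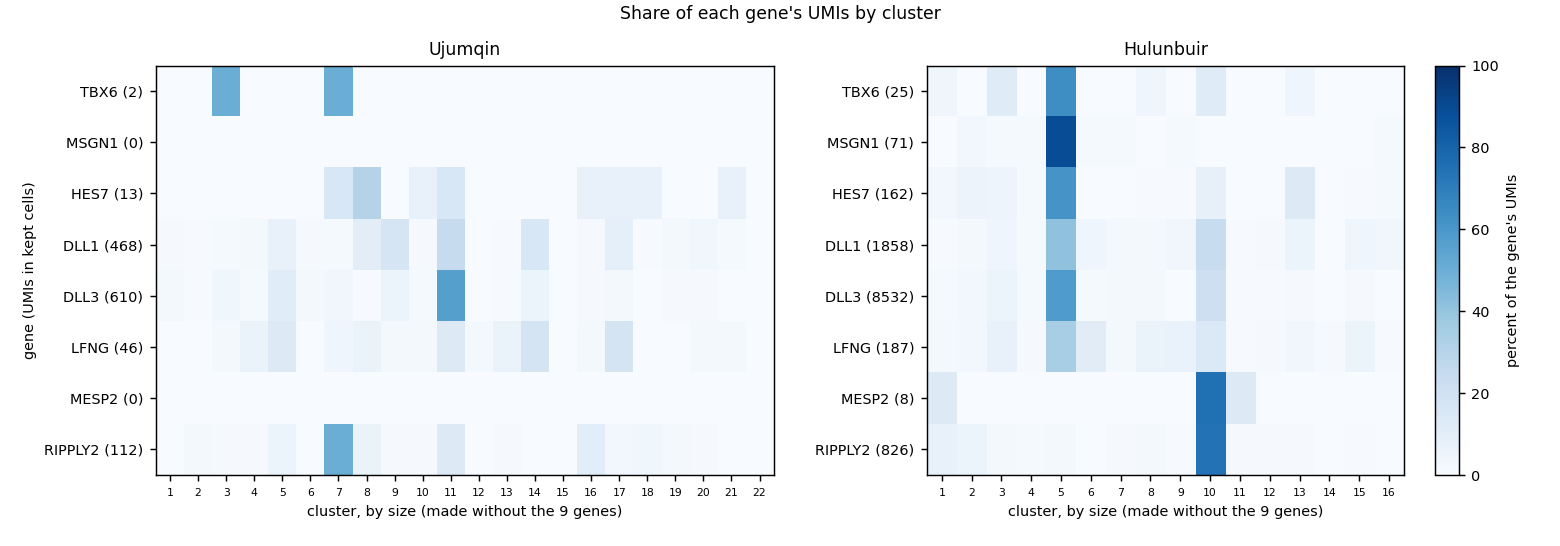
Share of each gene's UMIs (percent, colour) that fell into each cluster of the Ujumqin and Hulunbuir libraries, with the gene's UMIs in kept cells in parentheses; clusters are numbered by size within a library, so a number does not name the same cells in both, and MESP1 is not drawn. In Hulunbuir, cluster 5 holds 63 of 71 MSGN1 UMIs and cluster 10 holds 616 of 826 RIPPLY2 UMIs.

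RIPPLY2 was concentrated in few cells. Of the 288 Hulunbuir cells with a UMI, 231 had exactly 1, and 91 of these were mesenchymal. The 38 cells with 5 or more UMIs held 546 of the 826 UMIs (66.1%), and 37 of them were in cluster 10. Among these 38 cells, 36 had a DLL3 UMI, 35 a DLL1 UMI, 9 an LFNG UMI, 4 a MESP2 UMI, 3 a HES7 UMI and 0 an MSGN1 UMI. In Ujumqin 94 of 101 cells had exactly 1 RIPPLY2 UMI, 67 of them mesenchymal, and no cell had more than 4.

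DLL3 showed a like difference between the libraries. In Hulunbuir 601 cells with 5 or more UMIs held 77.3% of its UMIs, and 401 of these cells were in cluster 5. In Ujumqin 18 such cells held 42.0% of its UMIs, 17 of them in that library's cluster 11, which was led by CRABP1, CD24 and COL2A1.

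Co-detection, the share of cells with a UMI of 1 gene that also had a UMI of another, was read beside the share in the remaining cells. Most Hulunbuir cells had none of the 9 genes (73.8%), while 1661 had 1 of them, 630 had 2, 179 had 3, 38 had 4 and 4 had 5. In Ujumqin 95.3% of cells had none, 617 had 1, 61 had 2, 7 had 3 and 2 had 4.

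The 25 TBX6 cells of Hulunbuir seldom had its partner MSGN1, which was found in 1 of them (4% [0.101 to 20.4], 0.691% in other cells). With 1 cell, the interval is too wide to read a direction. They more often had HES7, in 6 cells (24.0%, 1.45% in other cells), DLL1, in 18 (72.0%), and DLL3, in 21 (84.0% [63.9 to 95.5], 19.2% in other cells).

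Of the 67 MSGN1 cells, 61 had DLL3 (91.0% [81.5 to 96.6], 18.9% in other cells), 38 had DLL1 (56.7%) and 4 had HES7 (5.97%). None had RIPPLY2, which on a floor of 3 cells allows a share of up to 4.48%, and since 3.03% of other cells had it, avoidance of RIPPLY2 by MSGN1 cells was not detectable at this depth. MSGN1 cells were somewhat deeper than the rest, with a median of 14319 against 11844.5 UMIs.

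DLL1 and DLL3 met in 669 cells, 62.8% [59.8 to 65.7] of the 1066 DLL1 cells against 13.9% of other cells. Of the 8 MESP2 cells, 7 had DLL1, 7 had DLL3 and 5 had RIPPLY2. These shares over all cells partly restate which classes hold the genes, so they were also read within a class.

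Within Hulunbuir caudal cells, MSGN1 cells had DLL3 more often than the others, in 45 of 48 (93.8% against 62.3%), and so did LFNG cells, in 53 of 60 (88.3% against 62.2%). For HES7 the 67 of 100 cells with DLL3 (67.0% against 63.5%) did not differ beyond counting error. The caudal class mixes clusters with much and little DLL3, and within cluster 5 alone the gaps were smaller, at 93.2% [83.5 to 98.1] against 78.7% for MSGN1, 90.3% [80.1 to 96.4] against 78.8% for LFNG and 74.1% [63.5 to 83.0] against 80.4% for HES7. MSGN1 and LFNG cells were also deeper than the others of cluster 5, with medians of 14115 and 13931 UMIs against 11943.5 and 11915. MSGN1 and HES7 shared 3 cells, 6.25% of MSGN1 cells [1.31 to 17.2] against 10.5% of the others, so no avoidance between the presomitic factor and the clock repressor could be read.

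Of the 48 RIPPLY2 cells in the Hulunbuir somite class, 47 had DLL3 (97.9% [88.9 to 99.9] against 49.7%) and 39 had DLL1 (81.2% against 26.9%). This restates a split of the class, since 46 of the 48 lay in cluster 10, where 95.7% of somite cells had DLL3, against 25.8% in cluster 7. Within the whole of cluster 10, RIPPLY2 was found in 37.3% [30.9 to 44.0] of DLL3 cells and 27.8% of the others, whose median depth was 2489 UMIs against 11148. In Ujumqin the 303 DLL1 cells had DLL3 in 49 (16.2% [12.2 to 20.8] against 1.80%), and they were deeper than the others, with a median of 22525 against 8855 UMIs. The part that depth had in this was not tested.

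**Figure D4:**
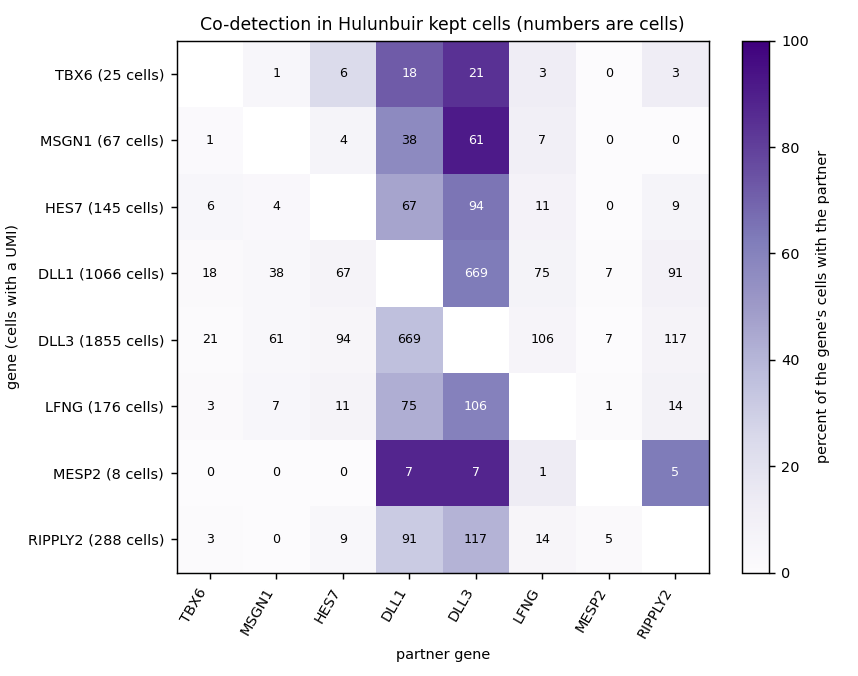
Co-detection of 8 genes in Hulunbuir kept cells: rows are the cells with a UMI of a gene, columns the partner gene, colour the percent of the row's cells with a partner UMI and the printed numbers the cells shared. DLL3 is the commonest partner of MSGN1 (61 of 67 cells) and TBX6 (21 of 25), and MSGN1 and RIPPLY2 share 0 cells.

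Thinning every cell to 1000 UMIs, which left out 516 Hulunbuir and 3345 Ujumqin cells, put both libraries on 1 depth. DLL3 was then found in 5.92% of Hulunbuir and 0.526% of Ujumqin cells, DLL1 in 1.64% and 0.357%, and RIPPLY2 in 0.629% and 0.0268%. Within Hulunbuir, DLL3 was found in 23.6% of caudal, 25.7% of somite, 0.413% of neural and 0.558% of mesenchymal cells. The gap between the libraries, and that between tail-end and neural cells, thus remained at equal depth. Caudal and somite cells changed places from the unthinned DLL3 shares, so no order between them is read.

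Most of the difference between breeds within the somite class lay with the cells of 1 Hulunbuir cluster. Over all somite cells Hulunbuir was higher in DLL3 by 2.66 log2 units (2.30 to 3.05), in DLL1 by 2.14 (1.55 to 2.78) and in RIPPLY2 by 4.44 (3.38 to 5.76), while the interval for LFNG spans 0 (1.35, -0.19 to 3.34). All 4 were at least 2-fold higher, where 12.9% of 6046 genes were, with a median of 2.40 against 0.27 for all genes.

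The 115 Hulunbuir somite cells in cluster 10 had DLL3 at 633 CPM [592 to 676], DLL1 at 172 [151 to 195] and RIPPLY2 at 255 [229 to 283]. The 124 in cluster 7 had DLL3 at 35.3 [27.0 to 45.4], DLL1 at 7.53 [4.01 to 12.9] and RIPPLY2 at 0.58 CPM, from 1 UMI. The 58 Ujumqin somite cells, 52 of them in that library's cluster 11, had DLL3 at 46.6 CPM [36.1 to 59.3], DLL1 at 18.4 [12 to 26.9] and RIPPLY2 at 4.95. Ujumqin somite cells were therefore far below the Hulunbuir cells of cluster 10, and their DLL3 overlapped that of cluster 7.

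In classes away from the tail the breeds differed less in DLL1 than in DLL3. The log2 difference of Hulunbuir over Ujumqin for DLL1 was 0.17 (-0.34 to 0.68) in gut endoderm, 0.25 (-0.36 to 0.86) in mesenchyme, 0.24 in endothelium and 0.17 in intermediate mesoderm. For DLL3 it was 2.29, 2.77 (2.34 to 3.23), 2.73 and 1.49 in the same classes. In neural progenitors neither gene differed beyond counting error, with DLL3 at -0.26 (-1.61 to 1.45) and DLL1 at 1.14 (-0.27 to 3.05). RIPPLY2 in mesenchyme was 0.67 (0.21 to 1.12) higher in Hulunbuir.

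Single cells decided some Ujumqin levels. In its 22 caudal cells DLL1 stood at 153 CPM from 45 UMIs, of which 37 were in 1 cell of 130547 UMIs, and without that cell it was 49.1 CPM [21.2 to 96.7], no longer above the Hulunbuir caudal level. DLL3 in the same cells was 157 CPM and 103 [69.1 to 148] without its highest cell, below the Hulunbuir 319 either way. Another Ujumqin cell held 111 of the library's 610 DLL3 UMIs, and without it DLL3 over all cells was 2.38 CPM.

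The balance of the Delta genes, given as DLL3 UMIs per DLL1 UMI and compared only between groups of cells, differed widely between classes. In Hulunbuir it was 11.2 [7.90 to 16.5] in presomitic, 5.50 [5.08 to 5.96] in caudal and 3.66 [3.19 to 4.21] in somite cells, and 0.474 [0.309 to 0.713] in neural progenitors. Gut endoderm (1.23), endothelium (1.47) and intermediate mesoderm (1.98) lay between. Mesenchyme, where both genes were low, had 6.39 [4.72 to 8.82], near the caudal value.

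Ujumqin had lower balances in the other classes compared, but not in neural progenitors, at 1.25 [0.269 to 6.30], which overlaps Hulunbuir. Its caudal value of 1.02 rests on the cell that held 37 of the 45 DLL1 UMIs. Somite cells were at 2.54 [1.59 to 4.16], which overlaps Hulunbuir, but mesenchyme was at 1.11, gut endoderm at 0.281 [0.157 to 0.481] and endothelium at 0.261. Over all kept cells the balance was 4.59 in Hulunbuir and 1.30 [1.15 to 1.47] in Ujumqin. The Hulunbuir balance was thus higher also in classes far from the tail, in a library where cluster 5 alone held 4971 of the 8532 DLL3 UMIs, and the part of free RNA in this was not tested.

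**Figure D5:**
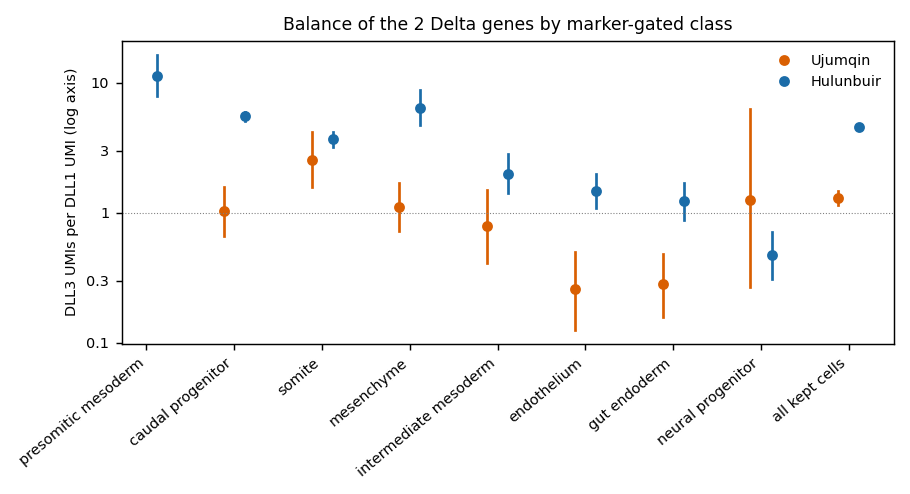
DLL3 UMIs per DLL1 UMI (log axis) by marker-gated class in the Ujumqin (orange) and Hulunbuir (blue) libraries, with exact 95% intervals; the dotted line marks equal counts and the Ujumqin presomitic class of 4 cells is not drawn. Hulunbuir goes from 11.2 in presomitic to 0.474 in neural cells, and mesenchyme is at 6.39 in Hulunbuir and 1.11 in Ujumqin.

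The other genes of the pathway were counted from 4 lists. Of the other Notch ligands, receptors and modifiers, 9 of 17 with enough UMIs were at least 2-fold higher in Hulunbuir over all cells, near the 45.1% of all genes, with a median log2 difference of 1.06 beside 0.91 for all genes. The ligands DLL4 (1.81) and JAG1 (1.43), the ligand-activating ubiquitin ligase MIB1 (1.54) and the receptor-cleaving protease ADAM10 (1.37) had the largest differences. Of the nuclear partners and targets, 5 of 9 were higher, again near the 45.1% of all genes, with a median of 1.03, led by the target repressor HES1 (2.03), the coactivator MAML3 (1.73) and the target repressor HEY1 (1.38).

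In Hulunbuir caudal cells, none of the 10 comparable ligands, receptors and modifiers and none of the 4 nuclear partners and targets was at least 2-fold higher than in neural progenitors. With 6.94% of all genes higher, a count of 0 among so few is near the background. At least 2-fold lower were 2 of the 10 and 2 of the 4, where 4.74% of all genes were, and none of the 6 comparable members of the 9 was. Of these members, MSGN1 and HES7 had enough UMIs only through caudal cells, so they could hardly be counted as lower. The DNA-binding partner RBPJ was at 81.6 CPM in caudal and 81.1 in neural cells (log2 difference 0.01, -0.19 to 0.21), and the secretase subunit PSENEN at 112 and 89.7 CPM. The 4 lower genes were HES1, at 2.09 against 4.57 CPM (-1.13, -2.10 to -0.11), the coactivator MAML2 (-1.72, -2.89 to -0.53), the receptor NOTCH2 (-1.29, -2.47 to -0.05) and the non-canonical ligand DLK1 (-2.97, -3.50 to -2.46).

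Of the WNT and FGF arms of the clock, all 12 comparable cyclic genes were higher in Hulunbuir over all cells (45.1% of all genes, median 2.57), among them the WNT inhibitor DKK1 (5.51) and the FGF feedback phosphatase DUSP6 (2.85). In Hulunbuir, 10 of 11 were higher in caudal than in neural cells (6.94% of all genes, median 1.95), and 8 of these 10 were no gate markers, such as the WNT feedback gene NKD1 (2.08) and the FGF feedback gene SPRY2 (2.94). In somite cells 7 of 10 were lower than in caudal cells (7.6% of all genes, median -1.84), including SPRY2 (-2.37), AXIN2 (-2.12) and NKD1 (-2.04), the same direction as HES7 and MSGN1.

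Of the wavefront and boundary list all 18 comparable genes were higher in Hulunbuir over all cells (45.1% of all genes, median 3.1), led by FGF17 (7.10), CYP26A1 (5.99), which clears retinoic acid from the tail bud, and FGF8 (5.23). Only 4 of the 18 were no gate markers, so the list's differences between classes were largely set by the gate. The guidance receptor EPHA4, which was no gate marker, was higher in caudal than in neural cells by 2.16 (1.67 to 2.69).

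Over the 22 classes of at least 20 cells from both libraries, the genes whose log2(CPM + 1) was most alike to the mean of the 9 genes were STOX1 (Pearson r = 0.867), CITED1 (0.847), SALL1 (0.846), GREB1L (0.844) and FGF8 (0.832), the last a gate marker. The classes of a library share its depth and make-up, so these values are a description.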

How the data were processed

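Single cells of 2 pooled-embryo libraries were analysed, 1 per breed. The deposited matrices held raw UMI counts, produced by the authors by running Cell Ranger on the Rambouillet v1.0 sheep genome. The file header and methods give version 5.0.0 and the submitters' processing notes version 3.1.0, along with Seurat 3.2.0 and R 3.6.1. No strand, doublet or free-RNA correction was stated, and doublets were kept.

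Depth was 212933364 UMIs in 17059 barcodes (Ujumqin) and 131385353 in 10709 (Hulunbuir). A class needed at least 2 markers, each with a UMI and a library-wide share exceeded at least 2-fold, with ties left apart, a rule set after the data were seen. Clusters used 2000 variable genes without the 9, 30 components, 20 neighbours and leidenalg 0.10.2 (scanpy 1.11.5, numpy 2.4.6, scipy 1.17.1) at resolution 1. Genes with at least 20 UMIs in the groups compared were tested for a 2-fold difference in summed CPM. A level of 0 was set to 3 UMIs for bounds. Scripts were tested on simulated data. All 9 genes were named, with up to 4 per pathway list and comparison by largest fold and the 5 most alike to the members' mean. EPHA4 was added after its value was seen. The genes and lists were chosen with earlier results of these data known. RefSeq (another assembly) gave gene order only, and no sequences are shown. Alternatives covered cell filters, depth, totals, gate rules, clusters and single cells.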

Additional observations from a re-analysis of the deposited data

How the results depend on the processing

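With 1 library per breed, no setting gives an error between embryos, and TBX6, MESP2 and the Ujumqin presomitic class rest on too few UMIs or cells for firm levels. The presomitic share of Hulunbuir cells was 0.188% with at least 3 markers, 0.344% with a 5-fold marker level, 1.17% with members in the gate and 8.44% by clusters, and that of Ujumqin cells 0% with 3 markers and 0.653% by clusters. That Ujumqin cluster held the most presomitic markers, but only 2 (RSPO3 and EPHA1), was led by DCN, COL1A1 and LUM and held no presomitic-gated cell, so neither this share nor the difference by clusters given next for Ujumqin describes presomitic cells. The log2 difference of the summed genes between breeds was 4.38 without the 5% of cells with most UMIs, 3.50 as a mean of cell CPM, 4.04 without mitochondrial, ribosomal and haemoglobin genes in the total, 3.34 outside the erythroid gate and 4.07 without the cell with most member UMIs. The Hulunbuir presomitic over neural difference stayed between 3.98 and 4.34 under every alternative run. In Ujumqin it was 3.14 with any marker UMI, 3.44 with members in the gate and 2.92 as mean CPM, turned to -0.40 with a 5-fold marker level and -2.74 by clusters, and had no value with 3 markers. The share of Hulunbuir TBX6 cells with MSGN1 was 0% after thinning to 2000 UMIs. Raising the minimum to 50 UMIs, or dropping it, changed the number of genes past 2-fold from 325 to 129 or 4440 for presomitic over neural, from 590 to 301 or 899 for caudal over neural, from 403 to 176 or 3597 for the lower genes there, from 373 to 189 or 3538 for somite over caudal, from 644 to 368 or 986 for the lower genes there, and from 781 to 380 or 1470 between breeds in somite cells. Of the values recomputed for the main comparisons, 42 moved by less than their interval or 1.5 times, 27 moved further and 2, both from Ujumqin, turned in direction. The cause of these changes was not tested. The any-UMI and 5-fold marker levels and the omission of shared barcodes or top cells were chosen after seeing the data. No paired analysis was possible because each breed is 1 library.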
